A study of Mus musculus with 16 samples.

Results

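The promoters described here belong to 9 mouse genes of the basic helix-loop-helix (bHLH) class: the neurogenins Neurog1, Neurog2 and Neurog3, Neurod1, Atoh1, the oligodendrocyte factors Olig1 and Olig2, and the Notch targets Hes1 and Hes5. They were chosen by gene name, with no measured value: a captured promoter fragment (bait) counted as a member when 1 of the gene names attached to it was that of a member. Of the 9 genes, 8 had a bait in the table, with 1 fragment each and 87 listed contacts in all, out of 20017 baits and 260860 contacts. Neurod1 had no listed bait and no listed contact, so its values are not analysed here. Each of the 8 bait fragments overlapped the RefSeq gene of its name on GRCm38.

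Proneural bHLH factors bind DNA as pairs with a ubiquitous bHLH partner and start neuronal differentiation in progenitor cells. Notch signalling holds neighbouring progenitors back: a Delta or Jagged ligand activates the receptor, whose freed intracellular part joins Rbpj on DNA and switches on Hes genes, and the Hes repressors silence proneural genes. In pluripotent cells most proneural genes are silent and carry Polycomb marks.

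The contacts come from promoter-capture Hi-C, in which HindIII-cut and religated chromatin is enriched for promoter fragments, so that DNA lying close to promoters in the nucleus is read out. The cells were naive embryonic stem cells (ESC, day 0, kept in 2i and Lif) and epiblast-like cells made from them (EpiLC, day 2). They came from 4 lines: DNMT_KO without Dnmt1, Dnmt3a and Dnmt3b, its parental wild type DNMT_WT, TET_KO without Tet1, Tet2 and Tet3, and its parental wild type TET_WT. The labels list 16 samples, 2 for each of the 8 groups of line and stage, and the authors' CHiCAGO scores come as 1 column per group, so no single column has an SD and its depth is unknown. No label says whether a line is a clone, and contact scores give no marker levels with which to check the labelled cell states. Contact scores do not show whether the Dnmt or Tet genes are deleted, so the genotypes were not checked. The series text speaks of triplicates in general.

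A CHiCAGO score measures how far the reads joining a pair of fragments exceed those expected at their distance, and 5 is the usual calling threshold, which each listed contact reaches in at least 1 column. Across the table, between 31.9% and 38.6% of listed contacts reached 5 in a given column. Among member contacts the share lay between 19.5% and 31.0% in 7 columns and was 43.7% in DNMT_KO EpiLC, where 34.4% of all contacts did. That column held 38 member contacts at 5 or more, against 17 to 27 in the others, and 16 of the 38 were at Hes1 and 13 at Hes5. Whether the depth of that column played a part was not tested.

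Promoter windows of 250 bases before to 50 after a gene's start, from RefSeq (GRCm38.p6), were found for 7 of the 9 genes. The following 3 are shown because Hes5 is the member whose promoter value passed the test, Neurog1 is the one whose stages do not overlap, and the Atoh1 window holds the edge of its captured fragment. Capitals mark TGGGAA or its reverse complement, the core of the Rbpj site, in Hes5 (chr4:154960673-154960972, plus strand). They mark the E-box CANNTG, the core that bHLH pairs bind, in Neurog1 (chr13:56252131-56252430, minus strand), and the HindIII site AAGCTT in Atoh1 (chr6:64728875-64729174, plus strand).
Hes5: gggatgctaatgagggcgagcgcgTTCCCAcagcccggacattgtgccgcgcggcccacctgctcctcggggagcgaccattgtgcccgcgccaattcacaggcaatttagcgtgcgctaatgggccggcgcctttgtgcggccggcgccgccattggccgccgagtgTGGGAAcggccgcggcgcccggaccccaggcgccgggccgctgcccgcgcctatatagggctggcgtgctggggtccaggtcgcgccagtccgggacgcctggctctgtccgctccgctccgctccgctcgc
Neurog1: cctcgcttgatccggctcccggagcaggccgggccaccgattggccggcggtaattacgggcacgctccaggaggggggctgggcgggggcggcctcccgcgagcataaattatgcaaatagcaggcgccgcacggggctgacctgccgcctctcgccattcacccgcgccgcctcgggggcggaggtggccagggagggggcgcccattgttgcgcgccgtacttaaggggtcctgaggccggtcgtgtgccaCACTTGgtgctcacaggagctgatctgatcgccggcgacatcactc
Atoh1: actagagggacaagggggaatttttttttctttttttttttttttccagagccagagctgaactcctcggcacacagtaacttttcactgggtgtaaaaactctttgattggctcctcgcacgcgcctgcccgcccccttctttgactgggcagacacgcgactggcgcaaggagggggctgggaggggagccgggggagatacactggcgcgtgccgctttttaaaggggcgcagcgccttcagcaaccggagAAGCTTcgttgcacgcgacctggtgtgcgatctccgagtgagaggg

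The Hes5 window held TGGGAA 2 times, 1 on each strand, and was the only one of the 7 windows with a match; on both strands, 25.6% of 32851 RefSeq windows of the same length have one. CANNTG was found once each in the Neurog1, Neurog3, Neurod1 and Hes5 windows (72.3% of all windows have it), and CACNAG, the N-box bound by Hes repressors, once each in those of Neurog2, Neurod1 and Atoh1 (42.5%). The patterns did not overlap each other in the windows printed. A match is a run of letters and no evidence of binding. AAGCTT, which 7.45% of windows hold, sits at the start of the Atoh1 gene: 45 bases of its window lay in the bait fragment, and the rest lay outside it. The other 5 windows that belong to a member with a bait lay in their bait fragments over all 300 bases. The Atoh1 bait measured 19096 bp, against 4843 to 7238 bp for the other members.

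The members differed in how many contacts were listed for them. Hes1 had 33, more than 90.9% of baits, Hes5 and Neurog2 had 17 each, Olig2 had 7, Neurog1 6, Olig1 3, and Neurog3 and Atoh1 2 each. The median bait of the table had 8. Of the 87 contacts, 77 spanned less than 1 Mb, 8 spanned more and 2 joined different chromosomes. The median span was 252 kb, against 275 kb over the table. Of the member contacts, 46 (52.9%) reached 5 in 1 column only and 2 (2.3%) in all 8, where the table had 44.0% and 6.70%. Another promoter bait was the other end of 5 contacts (5.75%, against 9.12% in the table), and no member was the other end of any listed contact, so no contact between members was listed. This held also for Olig1 and Olig2, neighbours on chromosome 16 with 38.8 kb between their baits. The other ends of the 87 contacts measured 170 to 3947 bp, and the member baits 4843 bp or more. Whether fragments as long as these baits could be listed as other ends was not tested, so their absence says nothing about contacts between members.

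**Figure D1:**
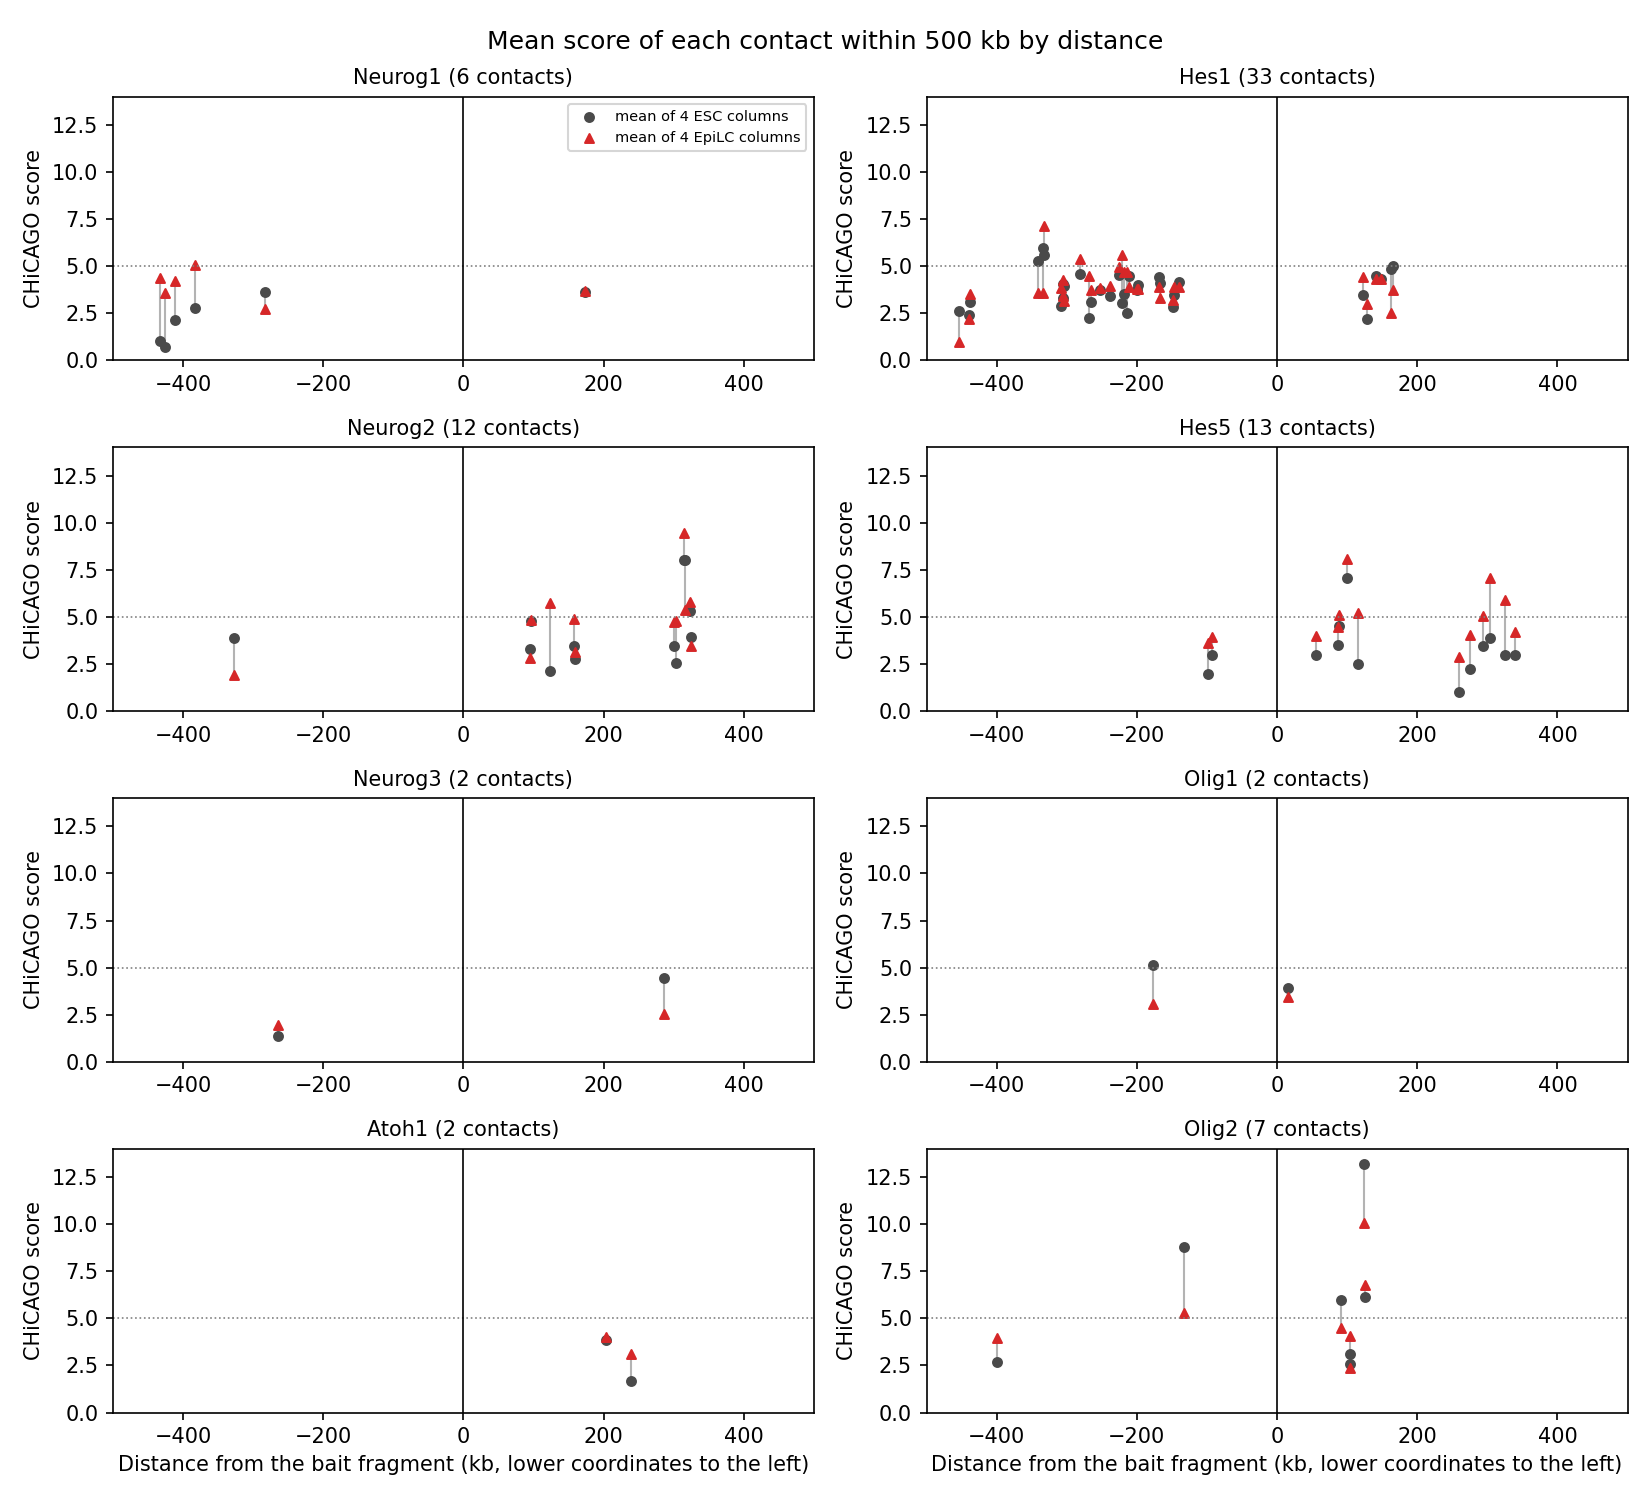
Each panel shows 1 member with a bait. The x axis gives the distance from the bait fragment in kb and the y axis the CHiCAGO score, with a dark grey point for the mean of the 4 ESC columns, a red triangle for the mean of the 4 EpiLC columns, and a dotted line at 5; the 77 contacts within 500 kb with scores in all columns are drawn. Hes1 contacts lie on both sides with none under 122.5 kb, and all 13 Hes5 contacts have a higher EpiLC than ESC mean. Most of these 13 reached 5 in EpiLC columns only.

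The first comparison asks how the contacts of these promoters differ between naive ESC and EpiLC. Each promoter was given 1 value per column, the asinh-transformed score (close to a natural logarithm for high scores) averaged over its listed contacts after quantile normalisation, if at least 3 contacts had scores in every column. This left 5 of the 9 members: Hes1, Hes5, Neurog1, Neurog2 and Olig2. In limma with cell line as a block, fitted over all 15677 promoters, 1 of the 5 passed an adjusted p of 0.05: Hes5 rose. Over all promoters 3.73% rose and 5.14% fell, 8.87% together; with 5 members, a single call cannot be told from that share. The other 4 had adjusted p-values of 0.061 (Neurog1), 0.35 (Olig2), 0.91 (Neurog2) and 0.92 (Hes1).

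Hes5 encodes a Hes repressor that keeps neural progenitors undifferentiated downstream of Notch (bait on chromosome 4, 154957848 to 154963929). In ESC its promoter values in DNMT_WT, DNMT_KO, TET_WT and TET_KO were 1.78, 1.90, 1.81 and 1.69, and in EpiLC they read 2.29, 2.50, 2.05 and 1.89. Each line was higher in EpiLC, by 0.50, 0.60, 0.25 and 0.20, although the lowest EpiLC value, that of TET_KO, was just under the highest ESC value, that of DNMT_KO. The mean difference was 0.39 ± 0.11 (limma's standard error, 4 lines), with an adjusted p of 0.043. The call was lost whichever line was left out (differences of 0.31 to 0.45, limma adjusted p of 0.069 to 0.20), with 0.20 when DNMT_KO, the line with the most Hes5 calls, was absent. With the wild-type lines alone the difference was 0.37 (limma adjusted p = 0.30).

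The Hes5 difference was spread over its listed contacts. All 13 that could be tested had a difference above 0 (median 0.37), against 49.5% of all tested contacts (median −0.0049). Neighbouring fragments share reads from 1 bait and are not independent. Most of the 13 reached 5 in EpiLC columns only, and so were listed through the stage where they are high. An example is the fragment at 276 kb, with 5.52 in DNMT_KO EpiLC and at most 3.93 in ESC. The promoter value averages the same contacts, so neither it nor the count of signs is free of this choice. Of its 17 contacts, 2 to 3 per column reached 5 in ESC, and in EpiLC it was 6, 13, 5 and 3 in DNMT_WT, DNMT_KO, TET_WT and TET_KO. The strongest contact, with a fragment in Plch2, a phospholipase C gene, 100 kb away, reached 5 in all 8 columns, with scores of 7.77, 5.26, 6.59 and 8.72 in ESC, then 10.2, 7.98, 5.35 and 8.76 in EpiLC (lines in the same order). The stages overlapped (0.11 ± 0.16, limma adjusted p = 0.75). A neighbouring fragment in Plch2 at 88.5 kb reached 5 in 5 columns, with 3.01 to 5.51 in ESC and 4.21 to 5.68 in EpiLC.

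Single contacts at 115 to 325 kb had larger differences. A fragment in Rer1, which encodes a retrieval receptor of the Golgi, 115 kb away (155075324 to 155076565), scored 1.52, 2.60, 3.22 and 2.73 in ESC, then 5.71, 6.11, 3.97 and 5.13 in EpiLC. The groups do not overlap there, and the difference was 0.66 ± 0.25 (limma adjusted p = 0.21). A fragment in Prkcz, the gene of an atypical protein kinase C that sets cell polarity, 303 kb away (155263130 to 155265323), scored 4.51, 5.40, 2.3 and 3.28 in ESC, then 8.01, 9.57, 6.71 and 4.0 in EpiLC. It was higher in EpiLC in each line, the groups overlapped only through TET_KO, and the difference was 0.56 ± 0.19 (limma adjusted p = 0.17). Another fragment in Prkcz, 325 kb away, scored 6.08, 1.99, 2.52 and 1.38 in ESC, then 7.25, 6.23, 8.12 and 2.06 in EpiLC.

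Neurog1, which specifies sensory neurons, had the largest difference among the members (bait on chromosome 13, 56247737 to 56254410). Its promoter values, in the same order of lines, were 1.42, 1.55, 1.54 and 1.38 in ESC, then 2.18, 2.08, 1.70 and 1.83 in EpiLC. All EpiLC values lay above all ESC values, as for 6.08% of promoters. Of the 6 contacts averaged, only the 1 at 283 kb reached 5 in ESC (5.24 in DNMT_WT). The others were listed through EpiLC columns only, the stage where the value is higher. The difference of 0.48 ± 0.15 missed the threshold (limma adjusted p = 0.061). It passed without scaling between columns (0.57, limma adjusted p = 0.036) and with columns divided by their mean (0.54, adjusted p = 0.048). It missed with each line left out (limma adjusted p of 0.071 to 0.20), in the wild-type lines (0.36), without the block (0.098) and with a minimum of 1 contact (0.11). The DNMT lines were higher by 0.76 and 0.53 and the TET lines by 0.17 and 0.45.

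**Figure D2:**
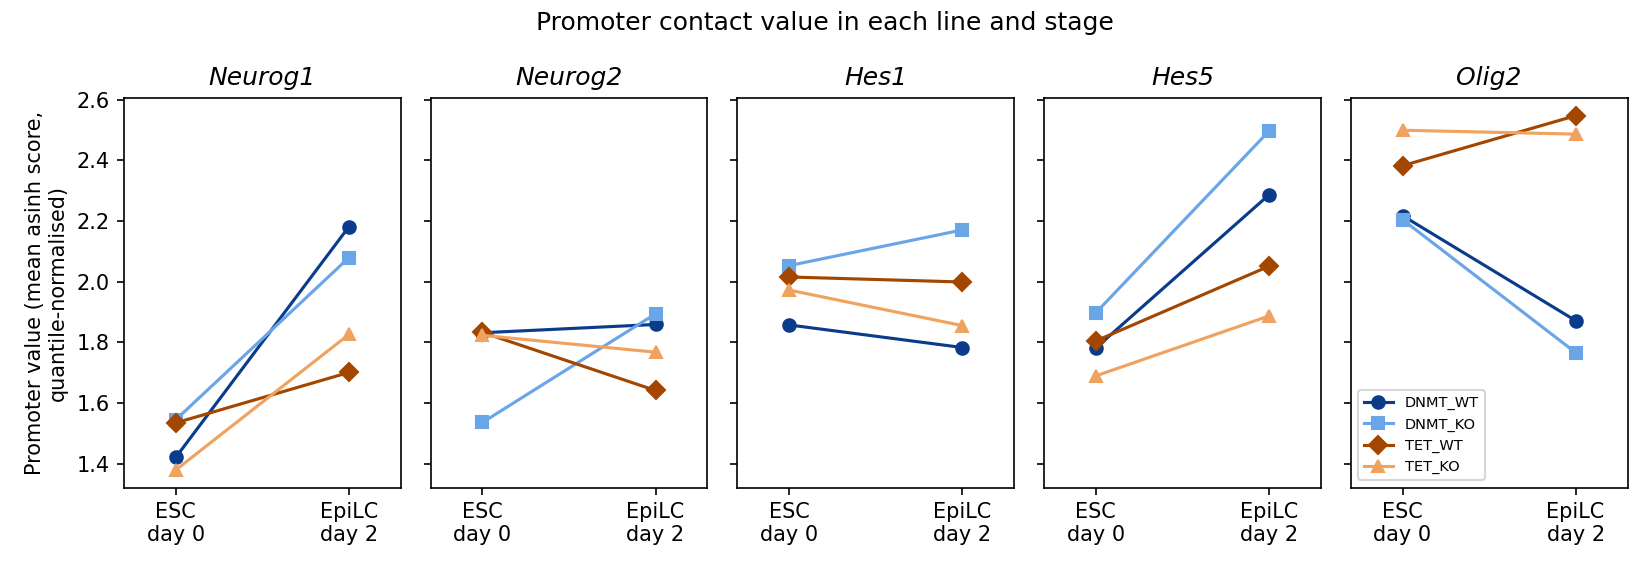
The y axis gives the promoter value (mean asinh score, quantile-normalised) of the 5 members with a value, and the x axis the stage; each line joins the ESC and EpiLC columns of 1 cell line, and there are no error bars since each point is 1 column. Hes5 and Neurog1 are higher in EpiLC in 4 of 4 lines, and Olig2 is lower in both DNMT lines.

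Of the 6 Neurog1 contacts, 4 lay 383 to 432 kb towards lower coordinates around Pitx1, a homeobox gene of the hindlimb and the pituitary. A fragment in Catsper3, a sperm ion channel gene, next to Pitx1 (55817090 to 55820121), scored 0.634, 1.48, 1.49 and 0.447 in ESC, then 6.97, 6.37, 2.16 and 1.94 in EpiLC. Both DNMT lines passed 5 in EpiLC and neither TET line did. The groups did not overlap, and the difference was 1.07 ± 0.41 (limma adjusted p = 0.21). A fragment overlapping Pitx1 itself (55824837 to 55825327) scored 0.548, 0.136, 1.05 and 1.05 in ESC, then 3.12, 6.83, 2.10 and 2.27 in EpiLC, again without overlap (1.08 ± 0.45, limma adjusted p = 0.25). The strongest of the 6 by mean score, 30.3 kb from Pitx1, scored 0.959, 4.94, 2.94 and 2.27 in ESC, then 3.55, 4.59, 5.57 and 6.49 in EpiLC, where the groups overlapped. A fragment 3.37 kb from Pitx1 reached 5 only in DNMT_WT EpiLC, with 8.50 there and 1.31 to 3.27 elsewhere. The remaining 2 contacts, at 283 and 173 kb, differed by −0.32 and −0.045 between the stages, and the one at 173 kb had the next highest mean score, with 2.37 to 5.11 over the 8 columns.

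Neurog2, which directs neurogenesis in the cortex and the spinal cord, did not pass the test (bait on chromosome 3, 127630619 to 127636117). Its promoter values were 1.83, 1.54, 1.83 and 1.82 in ESC, then 1.86, 1.89, 1.64 and 1.77 in EpiLC, a difference of 0.035 ± 0.14 (limma adjusted p = 0.91). Its 3 highest mean scores were among 6 fragments 301 to 325 kb towards higher coordinates, in or beside the gene 9830132P13Rik. The highest, at 314 kb (127947063 to 127948642), scored 8.39, 4.46, 10.3 and 8.91 in ESC, then 7.91, 6.86, 12.4 and 10.6 in EpiLC. It was under 5 only in DNMT_KO ESC, and the stages overlapped (0.16 ± 0.15, limma adjusted p = 0.61). The adjoining fragment at 317 kb reached 11.6 in TET_KO ESC and was at 2.67 in TET_KO EpiLC, and the one at 323 kb scored 3.33 to 7.0 over the 8 columns.

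The 2 contacts of Neurog2 with another chromosome joined fragments in Haus7 on the X chromosome and scored 9.53 in DNMT_WT ESC and 9.51 in TET_KO ESC, and no more than 2.83 elsewhere, with no score in either TET_WT column. Neurog3, which specifies endocrine cells of the pancreas, had 2 contacts and no promoter value. A fragment in Col13a1, a collagen gene, 264 kb away scored 5.17 in DNMT_WT EpiLC and 0.256 to 2.42 elsewhere. The contact with the promoter fragment of Hkdc1, a hexokinase gene, 286 kb away scored 3.52, 5.26, 3.71 and 5.21 in ESC, then 2.74, 0.990, 1.75 and 4.64 in EpiLC (−0.71 ± 0.30, limma adjusted p = 0.26), with overlapping groups.

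Atoh1, which specifies hair cells and cerebellar granule neurons, had 2 contacts, 203 and 239 kb away in a stretch with no annotated gene at either fragment. Their scores reached 5 once each, 5.49 in DNMT_WT EpiLC and 5.15 in TET_WT EpiLC, and their differences were −0.0063 ± 0.24 and 0.40 ± 0.38 (limma adjusted p = 0.99 and 0.61).

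Hes1, a Hes repressor known to be expressed in ESC, had the most contacts and did not pass the test (bait on chromosome 16, 30062774 to 30068830). Its promoter values were 1.86, 2.05, 2.02 and 1.97 in ESC, then 1.78, 2.17, 2.00 and 1.86 in EpiLC, a difference of −0.023 ± 0.11 (limma adjusted p = 0.92) that was 0.039 without scaling between columns. Its contacts were all 122.5 to 453 kb away, 27 towards lower and 6 towards higher coordinates, and none joined another promoter bait. Of the 33, 16 had a difference above 0 and 17 below, and limma's adjusted p was at least 0.21. The highest mean score was that of a fragment 333 kb away (29732840 to 29733542), 69.7 kb from Opa1, a mitochondrial fusion gene, with 4.35, 5.39, 6.83 and 5.72 in ESC, then 8.63, 4.26, 5.98 and 9.73 in EpiLC. The adjoining fragment at 334 kb went the other way, with 8.44, 4.38, 4.59 and 6.42 in ESC, then 2.43, 1.86, 3.57 and 6.49 in EpiLC (−0.60 ± 0.23, limma adjusted p = 0.21). Both pairs of groups overlapped. Another fragment, at 282 kb, reached 5 in 5 columns and scored 3.18 to 6.78 over all 8.

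Olig2, needed for motor neurons and oligodendrocytes, had the highest mean promoter value of the 5 (bait on chromosome 16, 91223171 to 91228013), above that of 90.5% of promoters. Its values were 2.22, 2.20, 2.38 and 2.50 in ESC, then 1.87, 1.77, 2.55 and 2.49 in EpiLC, a difference of −0.16 ± 0.11 (limma adjusted p = 0.35). The DNMT lines were lower in EpiLC by 0.35 and 0.44, and the TET lines differed by 0.16 and −0.013. In EpiLC the wild-type lines stood 0.67 apart, just short of a doubling, with TET_WT higher. The strongest contact of any member was that of Olig2 with the bait of the small nuclear RNA copy U4.8, 124 kb away. It scored 14, 10.6, 15 and 13.3 in ESC, then 8.24, 6.02, 11.6 and 14.4 in EpiLC, at least 5 in all 8 columns, with overlapping groups (−0.32 ± 0.15, limma adjusted p = 0.30). A fragment at 126 kb scored 9.44 and 9.50 in TET_KO ESC and EpiLC, and 4.79 to 7.24 in the other 6 columns.

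The lowest adjusted p of any member contact was that of Olig2 with the promoter fragment of 4932438H23Rik, 132 kb towards lower coordinates (91091544 to 91095343). It scored 8.28, 8.66, 7.99 and 10.2 in ESC, then 5.07, 3.30, 6.17 and 6.67 in EpiLC. Every ESC score lay above every EpiLC score, and the difference was −0.54 ± 0.17 (limma adjusted p = 0.14). The neighbouring Olig1, a partner of Olig2 in the oligodendrocyte lineage, contacted the same fragment over 177 kb with 7.23, 4.78, 4.07 and 4.42 in ESC, then 2.99, 2.69, 2.35 and 4.29 in EpiLC. Each line was lower in EpiLC, the groups overlapped only through TET_KO, and the difference was −0.54 ± 0.24 (limma adjusted p = 0.26). Olig1 (bait 91266854 to 91274091) had 2 other contacts, at 15.1 kb with 1.69 to 5.02, and over 6498 kb, with 5.41 in TET_WT ESC, 0 in 4 columns and no score in the remaining 3.

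**Figure D3:**
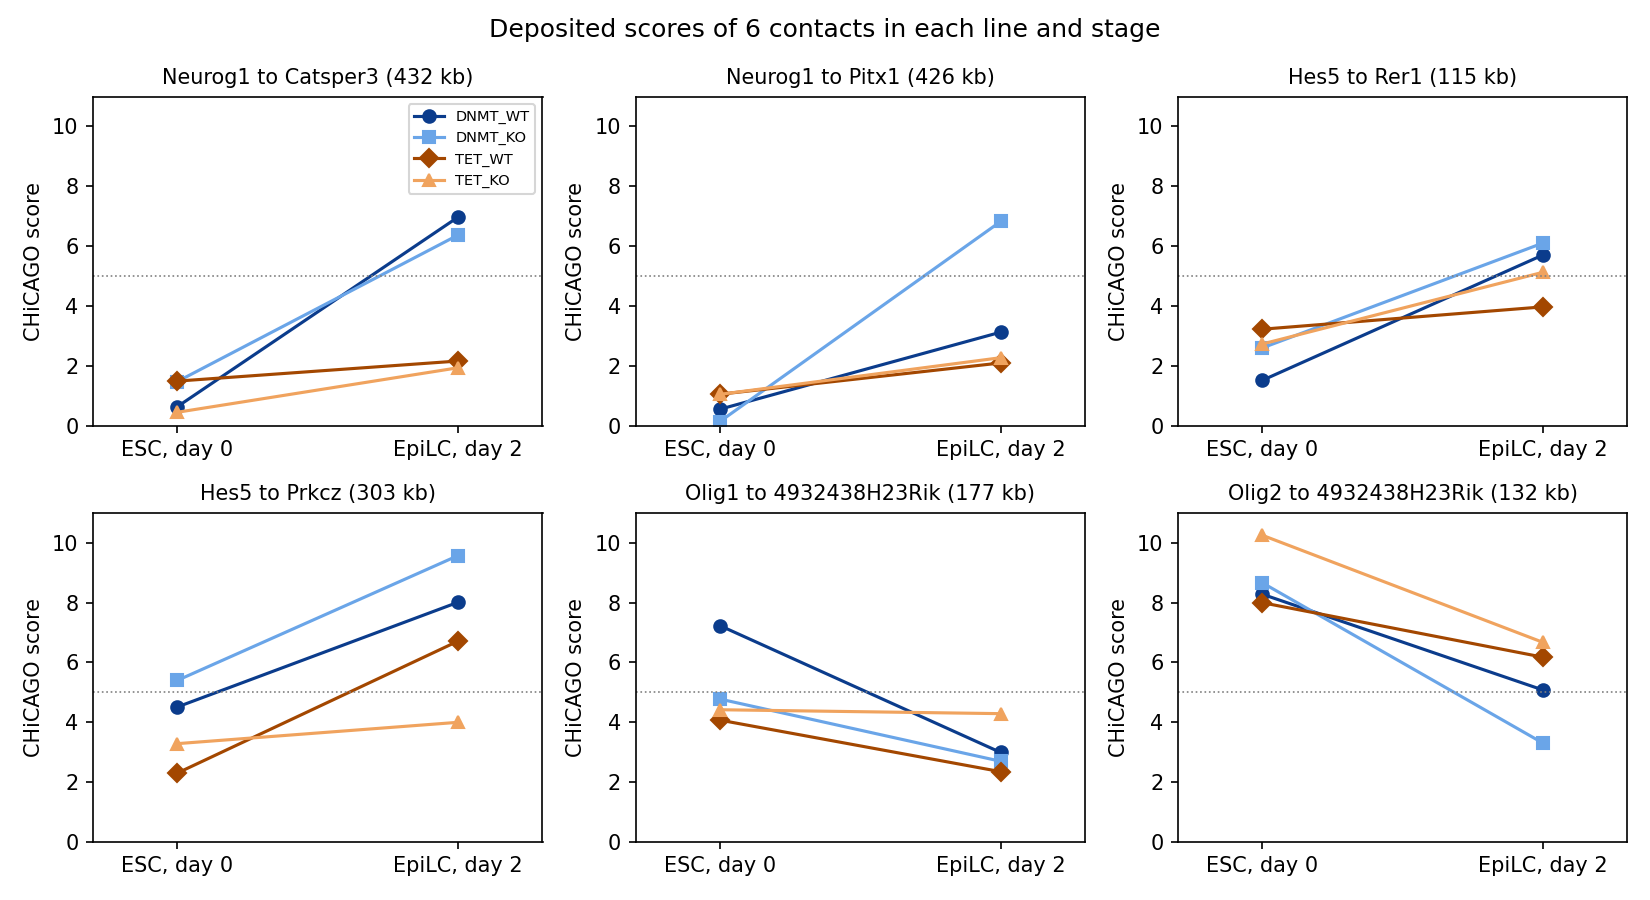
The y axis gives the deposited CHiCAGO score of 6 contacts in ESC and EpiLC, with 1 joined pair of points per cell line and a dotted line at 5; no error bars are drawn since each point is 1 column. The 6 were chosen with their scores known. The drawn contacts of Neurog1 and Hes5 are higher and those of Olig1 and Olig2 lower in EpiLC in 4 of 4 lines. Contacts not drawn can go the other way. Neurog1 at 283 kb is lower, and Olig2 at 400 kb higher, in EpiLC in 4 of 4 lines.

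Contact by contact, limma called 0 of the 80 member contacts that had all scores and lay on 1 chromosome, where 771 of 244865 (0.315%) were called over the table. At an unadjusted p under 0.05 there were 18 member contacts (22.5%), 10 higher and 8 lower in EpiLC, against 16.6% of all contacts (8.35% higher and 8.26% lower). The EpiLC scores lay entirely above or below the ESC scores in 5 (6.25%), against 8.64% of all contacts. They were 4 above, at Neurog1 and Hes5 (4.85% of all contacts), and 1 below, at Olig2 (3.79%). The medians were 0.053 over member contacts and −0.0049 over all. The remaining 7 contacts had no score in at least 1 column and were not tested.

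Of these 7, 4 joined Hes5 to fragments in Rere, a nuclear receptor co-repressor gene, over 4394 to 4525 kb of chromosome 4. They scored at most 6.94, and 5 or more in 1 column each: DNMT_KO ESC, DNMT_WT EpiLC, and DNMT_KO EpiLC for the other two. In TET columns their scores were 0 or missing. Contacts over more than 4 Mb on chromosome 4 were listed mostly in the DNMT columns, with 226, 2095, 2782 and 2420 at 5 or more in DNMT_WT ESC, DNMT_KO ESC, DNMT_WT EpiLC and DNMT_KO EpiLC, against 9 to 19 in the TET columns. The Hes5 promoter value does not include these 4.

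The second comparison asks how the contacts differ in the lines labelled as lacking the 3 Dnmt genes or the 3 Tet genes. A group has a single column, so these differences have no replicate check within a stage, and a contrast over both stages was not run. None of the 5 promoters differed by a doubling (0.693 on this scale) between DNMT_KO and DNMT_WT in ESC (4.23% of all promoters did) or EpiLC (2.5%), or between TET_KO and TET_WT in ESC (5.63%) or EpiLC (6.14%). None did between the wild-type lines either (4.11% in ESC and 4.88% in EpiLC). The DNMT differences were 0.12 and −0.10 for Neurog1 in ESC and EpiLC, −0.30 and 0.035 for Neurog2, 0.20 and 0.39 for Hes1, 0.12 and 0.21 for Hes5, and −0.013 and −0.11 for Olig2. The TET differences of the 5 lay between −0.15 and 0.12 in ESC and between −0.16 and 0.13 in EpiLC. With contacts within 1 Mb only, the TET difference of Neurog2 in ESC went from −0.0097 to −0.27 and its DNMT difference in EpiLC from 0.035 to −0.17. Between the wild-type lines the members spanned 0.0012 to 0.16 in ESC and −0.48 to 0.67 in EpiLC, so in EpiLC the 2 wild types stood farther apart at Neurog1 and Olig2 than any knock-out from its own wild type.

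**Figure D4:**
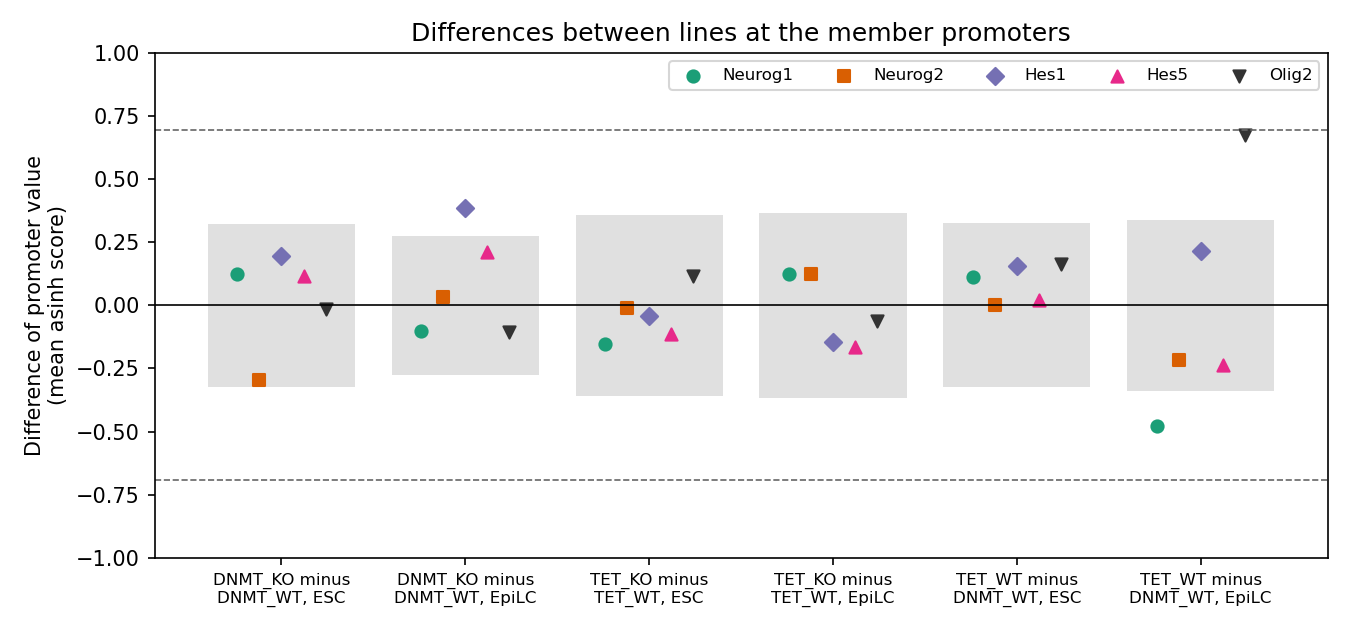
The y axis gives the difference of promoter value (mean asinh score) between 2 columns, for the 4 knock-out comparisons and the 2 comparisons of wild-type lines on the x axis; points are the 5 members, grey bars reach 1 SD of all 15677 promoters to either side of 0, and dashed lines mark a doubling. Hes1 in DNMT_KO EpiLC (0.39) is the knock-out difference outside the grey bar, and Olig2 between the wild types in EpiLC (0.67) is the largest of all.

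Single contacts switched between columns in both directions. Counting contacts at 5 or more in one column and under 3 in the other, DNMT_KO gained 4 and lost 5 of the 80 in ESC (11.25% together), where 11.9% of all contacts switched, 5.95% gained and 5.93% lost. In EpiLC it gained 11 and lost 4 (18.75%), against 9.61% of all contacts, 4.85% gained and 4.76% lost. Hes1 alone held 8 of the 11 gains and 2 of the 4 losses, and the other 47 contacts gained 3 and lost 2 (10.6%). Some of these Hes1 gains, such as those at 265 and 238 kb, reached 5 in no other column. They were thus listed through DNMT_KO EpiLC alone, and neighbouring fragments of the Hes1 bait are not independent. TET_KO gained 4 and lost 3 in ESC (8.75%), against 11.4%, 5.79% gained and 5.59% lost. In EpiLC it gained 4 and lost 7 (13.75%), against 12.1%, 6.21% gained and 5.89% lost. Between the wild-type lines 7 switched in ESC (8.75% against 13.3%) and 13 in EpiLC (16.25% against 11.6%).

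At Hes5, the fragment in Prkcz at 325 kb was lower in both knock-outs at both stages. It scored 1.99 against 6.08 in DNMT_KO and DNMT_WT ESC and 6.23 against 7.25 in EpiLC, and 1.38 against 2.52 in TET_KO and TET_WT ESC and 2.06 against 8.12 in EpiLC. At Neurog2, a fragment in Alpk1, an innate immune kinase gene, 124 kb away scored 10.2 in TET_KO EpiLC against 2.17 in TET_WT EpiLC. In ESC it was at 2.20 against 2.18. DNMT_WT and DNMT_KO had 1.35 and 2.85 in ESC, then 4.87 and 5.76 in EpiLC. Another fragment in Alpk1, at 94.5 kb, scored 2.37 in TET_KO against 5.59 in TET_WT in EpiLC, and 2.60 against 4.43 in ESC. The Neurog2 contact at 325 kb scored 2.51 in DNMT_KO against 6.16 in DNMT_WT in ESC, and 2.19 against 2.31 in EpiLC. At Hes1, a fragment at 212 kb scored 7.40 in DNMT_KO against 3.01 in DNMT_WT in ESC, and 6.44 against 1.43 in EpiLC. The one at 252 kb was lower in DNMT_KO, with 3.68 against 4.41 in ESC and 2.24 against 5.57 in EpiLC. At 304 kb, a Hes1 contact scored 5.30 in TET_KO against 2.23 in TET_WT in ESC, and 4.37 against 2.67 in EpiLC. Another Hes1 contact, with a fragment in Opa1 at 439 kb, scored 1.31 in TET_KO against 5.06 in TET_WT in ESC, and 2.62 against 4.87 in EpiLC. The same contact was also low in a wild-type line, at 0.550 in DNMT_WT ESC against 5.47 in DNMT_KO ESC. In EpiLC the DNMT lines were at 3.34 and 3.28. Of the other members, Olig2 contacted the promoter fragment labelled 4931408A02Rik, which overlaps the gene Eva1c, 400 kb away. This contact scored 5.54 in TET_KO EpiLC against 3.07 in TET_WT EpiLC, and 2.94 against 2.59 in ESC. Atoh1 at 239 kb scored 2.91 in TET_KO EpiLC against 5.15 in TET_WT EpiLC, and 1.69 against 2.95 in ESC. The contact of Neurog1 at 383 kb, described above, was at 4.94 in DNMT_KO ESC against 0.959 in DNMT_WT ESC, and at 4.59 against 3.55 in EpiLC.

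The other Notch pathway genes, a list chosen with earlier results of these data known, had 21 tested promoters from 25 genes. Of these, 1 rose and 0 fell in limma: Dll1, a Delta ligand, rose by 0.61 ± 0.10 (adjusted p = 0.0073, 3.73% of all promoters rose and 5.14% fell), from 2.24, 2.49, 2.11 and 2.35 in ESC to 2.87, 2.89, 3.04 and 2.85 in EpiLC. All EpiLC values of Dll1 lay above all ESC values. The list's median was 0.14, against −0.010 over all promoters, and 16 of its 21 promoters were above 0, against 48.2% of all. Rfng, a Fringe enzyme that modifies Notch receptors, had the lowest difference (−0.31 ± 0.11, limma adjusted p = 0.093), and Rbpj itself had 0.44 ± 0.16 (limma adjusted p = 0.083).

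Of 16 tested promoters among 23 other helix-loop-helix genes, 1 rose and 2 fell in limma, where 3.73% and 5.14% of all promoters did. Id2, which blocks bHLH factors by pairing with their partners, rose by 0.79 ± 0.14 (adjusted p = 0.0078). Neurod6, a factor of cortical neurons, fell by 0.45 ± 0.13 (limma adjusted p = 0.038). The list's median was −0.020.

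Promoters on other chromosomes with at least 10 listed contacts whose 8 values ran most like those of a member were found by Pearson correlation. For Hes5 these were Mnat1 and Fgfr1 (r = 0.984 and 0.981), for Neurog1 Myc and SNORA17.501 (0.977 and 0.964), for Neurog2 Rpl29 and Mir450b (0.986 and 0.953), for Olig2 Phf21a and Treh (0.953 and 0.947), and for Hes1 Zfp366 and Lmnb1 (0.918 and 0.907). They are the top 2 of 8202 to 8550 promoters over only 8 columns, and the columns share their 2 stages and 4 lines. For Hes5 and Neurog1, 65 and 59 promoters passed 0.9, and for Hes1 2 did.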

How the data were processed

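The labels' protocols describe HindIII promoter-capture Hi-C. The submitters' processing notes name the build GRCm38 and the tools cutadapt 2.3 and Trim Galore 0.6.5. Not given in the sources used here are the aligner, the CHiCAGO version and how replicates were combined. Values are CHiCAGO scores made and deposited by the authors, 1 column per group, never negative, with no scaling stated. No values per sample were used. The p-values therefore set the stage difference against its variation from line to line over 4 lines, of which 2 derive from the other 2.

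From these scores, asinh values were quantile-normalised between columns and averaged per bait (minimum of 3 contacts). Contacts with a missing score (5.88% of the table) were left out. Promoters, and single contacts on 1 chromosome (normalised separately), were fitted with limma 3.58.1 in R 4.3.3 (trend, cell line as block, Benjamini-Hochberg at 0.05), tested on simulated data. Knock-out contact counts used quantile-normalised scores, and printed scores are as deposited. Distances run between fragment midpoints. Other ends that were baits were named by their bait label, and the rest by overlap with, or distance to, RefSeq genes of GRCm38.p6. All members are named; contacts are named if past the threshold, among the 3 highest means, the largest non-overlapping rise or fall, or the largest knock-out switch of 1 sign at both stages; some others are described that were chosen after their values were seen. The members, lists and tests were chosen with earlier results of these data known. Some results are not reported here.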

Additional observations from a re-analysis of the deposited data

Results flagged for a closer look

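Among promoter values and named contacts, a column was set apart where its gap to the next exceeded Dixon's 95% critical value for 4 values, which chance does in about 1 of 20 groups. Many groups were looked at, so some columns are set apart by chance alone, and those below were not tested further. The Neurog2 promoter value of 1.54 in DNMT_KO ESC lay below the other 3 ESC columns. The contact of Olig2 at 126 kb scored 9.44 in TET_KO ESC, above the other 3, and was 9.50 in TET_KO EpiLC. The Atoh1 contact at 203 kb scored 2.59 in DNMT_WT ESC, below the other 3.

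Among promoter values and named contacts, stage differences of opposite sign in every line of a pair were found at 3 places. These differences were not tested, nor was how often such signs arise by chance. Member contacts outside the named set had them too, such as Olig2 at 91.4 kb (−1.03 and −0.91 in the DNMT lines, 0.11 and 0.037 in the TET lines). The Neurog2 promoter was higher in EpiLC in both DNMT lines and lower in both TET lines, 0.32 apart on average. The Neurog2 contact at 325 kb went the other way, with the DNMT lines at −0.79 relative to the TET lines. The Olig1 contact at 15.1 kb was higher in EpiLC in both knock-out lines and lower in both wild-type lines, 0.53 apart on average. This came from the DNMT lines (−0.83 in DNMT_WT and 0.20 in DNMT_KO), as the TET lines were close to 0 (−0.0044 in TET_WT and 0.014 in TET_KO).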

How the results depend on the processing

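No paired analysis was possible because the deposited columns carry no replicate numbers: samples could not be paired by number, and the stages were paired by cell line only. Over all promoters the 1391 calls became 21 with a minimum of 1 listed contact, 522 without the line block, 0 with the number of contacts at 5 or more (limma, 2775 at an unadjusted p under 0.05), 0 in the wild-type lines (limma, 2360 unadjusted), and 25 to 600 with a line left out. Without scaling between columns 905 rose and 442 fell, against 585 and 806, and the median over all promoters went from −0.010 to 0.050. The 771 contact calls became 1226 with log2(score + 1), 1265 within 1 Mb, 243 without the block, and 0 to 13 with a line left out (limma, 0 without TET_KO, 28240 at an unadjusted p under 0.05). Promoters past a doubling with a minimum of 10 contacts numbered 112 and 24 for DNMT_KO in ESC and EpiLC (663 and 392 with 3) and 221 and 238 for TET_KO (882 and 963). Member calls summed over columns were 186 at 5, 13 at 10 and 413 at 3. Hes5 also missed the threshold with a minimum of 1 contact (limma adjusted p = 0.094), without the block (0.10) and by contact number (0.27). By contact number the differences of Hes1 and Olig2 changed sign, to 0.50 and 0.25 contacts (limma adjusted p = 0.91 and 0.90). With contacts within 1 Mb only, the Neurog2 knock-out differences moved from −0.0097 to −0.27 (TET, ESC) and from 0.035 to −0.17 (DNMT, EpiLC), its contacts over 1 Mb being left out. The cause of the other changes was not tested. Depth is unknown, so it sets no limit that can be stated here.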
